A study of Rattus norvegicus with 6 samples.

Results

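The 5 mature miRNAs described here, miR-423-5p, miR-423-3p, miR-191a-5p, miR-103-3p and miR-16-5p, are often used as reference miRNAs for vesicle or serum assays. They were taken by exact name from the 763 mature miRNAs of the deposited table; the rule uses no measured value. The libraries hold small RNA from exosomes in the supernatant of rat mesenchymal stem cells, which the labels name RBMSC and give as WT. For 3 libraries the cells received no treatment. For the other 3 the cells were pretreated for 24 h with 200 µM nicorandil, a nitrate that also opens ATP-sensitive potassium channels. Both groups share the cell type, the isolation reagent and the library kit. Whether a group's 3 libraries are separate cultures is not stated in the labels, and the p-values cover only library-to-library spread, possibly technical.

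A miRNA is cut from a hairpin precursor, and either arm of the hairpin, the 5p or the 3p strand, can be loaded into an Argonaute protein. Bases 2 to 8 of the loaded strand, the seed, pair with target messenger RNAs. Exosomes are small vesicles that carry some of the miRNAs of the cell that released them. A reference miRNA serves as the denominator of a relative measurement, so what matters is that its level, and its ratio to other references, varies little from sample to sample. miR-103 and miR-107 are near-identical miRNAs encoded in introns of pantothenate kinase genes. miR-16 belongs to the miR-15/16 family, known for targeting cell-cycle and anti-apoptotic messenger RNAs, and it is abundant in blood cells.

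The mature sequences, given 5′ to 3′ from RefSeq (assembly GRCr8), are shown because miRNAs with 1 seed can pair with the same targets, and near-identical ones can share reads. Capitals mark the seed, and 4 of the 5 members were matched.
miR-423-5p: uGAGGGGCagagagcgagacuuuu
miR-191a-5p: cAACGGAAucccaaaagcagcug
miR-103-3p: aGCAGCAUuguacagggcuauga
miR-16-5p: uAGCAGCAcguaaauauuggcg
miR-107-3p: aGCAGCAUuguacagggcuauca

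On GRCr8, miR-423-5p lies at chr10:62412317-62412340 on the minus strand, within the Mir423 hairpin. miR-191a-5p lies at chr8:118142641-118142663 on the plus strand, in Mir191, and 366 bases separate that hairpin from Mir425. miR-103-3p has 2 hairpins, Mir103a1 on chromosome 10 and Mir103a2 on chromosome 3, so its reads cannot be assigned to either. The copy in Mir103a2 is at chr3:138963278-138963300 on the plus strand. miR-16-5p lies at chr2:155555343-155555364 on the plus strand, in Mir16. miR-107-3p, which is no member, is printed because it differs from miR-103-3p by G22C alone, counted from 1 at the 5′ end of miR-103-3p. A read that ends before that base fits both.

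The Mir423 hairpin is shown because both of its arms are members. It spans chr10:62412272-62412350 on the minus strand, and capitals mark the 5p arm.
Mir423: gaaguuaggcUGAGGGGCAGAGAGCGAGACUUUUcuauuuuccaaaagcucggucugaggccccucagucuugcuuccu

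The seeds separate the members into groups with little company among the reads. The seed of miR-191a-5p was shared by no other miRNA of the table that could be matched to a sequence. That of miR-423-5p was shared by miR-3573-5p, which had 0 reads. The seed of miR-103-3p was shared by miR-107-3p, with 2 reads over all libraries. That of miR-16-5p was shared by miR-15b-5p, miR-195-5p, miR-322-5p and miR-497-5p, with 1 read among them.

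Few reads stand behind each library, and more behind the nicorandil ones. Whole reads were recovered from the deposited values, and they sum to 2224, 2212 and 2338 miRNA reads in untreated replicates 1, 2 and 3 and to 16628, 16324 and 8426 in the nicorandil replicates. Depth and treatment therefore cannot be told apart for a value that depends on depth. A library with 0 reads of a miRNA may still hold what would give up to 3. That is a share of up to 0.128% to 0.136% in the untreated group and of up to 0.018% to 0.0356% in the nicorandil group. These limits and all Wilson intervals cover counting error only, since amplified reads that carry no molecular identifiers need not be separate molecules. At their greater depth, the nicorandil libraries all differed from one another beyond the sampling noise. The chi-square p was 3.3e-13 for nicorandil replicates 1 and 2, 2.3e-55 for 1 and 3, and 1.8e-57 for 2 and 3. Untreated replicates 1 and 2 differed by less than the sampling noise (chi-square 46.2 on 53 degrees of freedom, p = 0.735). Replicates 1 and 3 differed by somewhat more (chi-square 64.6 on 54 degrees of freedom, p = 0.154), without passing the threshold. Replicates 2 and 3 passed it (chi-square p = 0.0145). They were kept as 3 samples; with replicates 1 and 2 counted as 1 sample, an alternative chosen after seeing the data, limma called 21 of 121 miRNAs (14 higher, 7 lower) and no pair of members. Of the mesenchymal markers, 11 of 11 had a read. They held 27.3% to 28.0% of the reads in the untreated libraries and 26.2% to 31.3% in the nicorandil libraries. This summed share is mostly miR-143-3p, which alone had 11754 of their 14343 reads. Among the 10 markers that could be tested, limma on the deposited values called 4 higher with nicorandil and 0 lower. Over all 121 miRNAs it called 26, or 21.5%, with 17 higher and 9 lower. With each library divided by its own miRNA read total, only miR-145-5p of the 4 stayed called. miR-145-5p was at 0 reads in the untreated group. miR-31a-5p also had none there, and 1 in the nicorandil group.

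Together the 5 members held 5598 of 48152 miRNA reads, or 11.6%. By library this summed share was 14.6%, 13.6% and 12.1% in the untreated group and 10.7%, 10.8% and 13.7% in the nicorandil group. The groups overlap, since the third nicorandil library lies above the second untreated one. The means were 13.4% ± 1.22 and 11.7% ± 1.75 (SD, n = 3 each), and the difference of -1.70 percentage points did not pass a two-sided exact permutation test (p = 0.3). With 3 libraries against 3 this test cannot give a p below 0.1, so it cannot reach the 0.05 threshold for any value given here. In exosome RNA, fewer vesicles that carry a miRNA and fewer copies in each vesicle cannot be told apart.

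**Figure D1:**
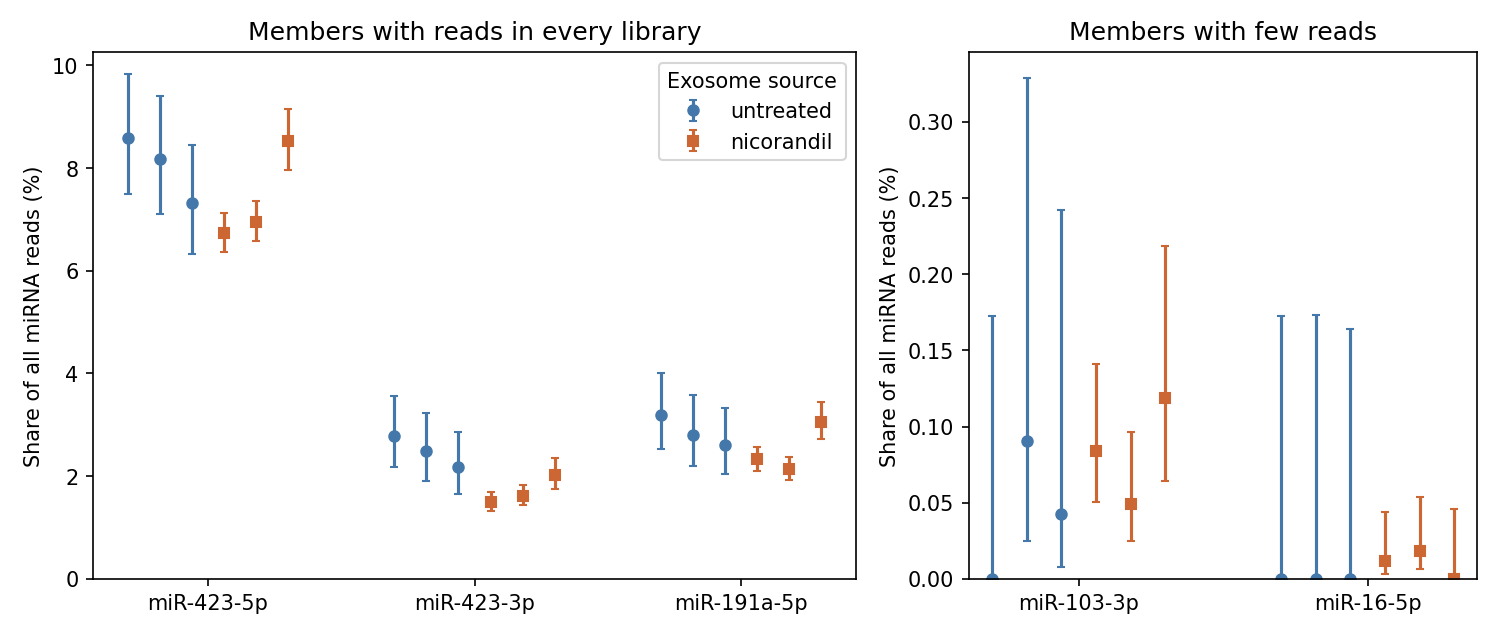
Share of miRNA reads (percent, linear axes that differ between the 2 panels) of each of the 5 miRNAs in the 3 untreated and 3 nicorandil libraries; points are libraries and bars are 95% Wilson intervals for counting error only. miR-423-5p sits between 6.73% and 8.59% in all 6 libraries, while miR-16-5p has no read in 4 of them.

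The members fall into an abundant set of 3 and a sparse set of 2. By mean deposited signal over the 6 libraries miR-423-5p ranked 3 among the 763 miRNAs, miR-191a-5p ranked 7 and miR-423-3p ranked 11. miR-103-3p ranked 79 and miR-16-5p ranked 171. The deposited signal is the authors' normalized read count, brought to 1 common library size, and it corrects for neither length nor ligation preference, so these ranks order signals and not molecules.

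miR-423-5p, the 5p strand of the Mir423 hairpin, was the most abundant member. It had 191, 181 and 171 reads in the untreated libraries and 1119, 1136 and 719 in the nicorandil libraries. As shares of miRNA reads these are 8.59%, 8.18% and 7.31%, and 6.73%, 6.96% and 8.53%. The share groups overlap, because the third nicorandil library reaches the untreated level. The mean share was 8.03% ± 0.65 untreated and 7.41% ± 0.98 with nicorandil (SD, n = 3 each; exact permutation p = 0.3).

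The order of the groups turned over on the deposited scale. The signal of miR-423-5p was 368, 391 and 358 in the untreated libraries and 418, 449 and 555 in the nicorandil libraries. Every nicorandil library was above every untreated one on this scale, and the means were 373 ± 16.9 and 474 ± 71.7 (SD, n = 3 each). On log2(signal + 1) the difference was 0.34 (SE 0.13), with a limma adjusted p of 0.0764, so it was not called. Without nicorandil replicate 3 it was 0.22. With each library divided by its own miRNA read total, the difference was -0.12.

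miR-191a-5p, the 5p strand of Mir191, had 71, 62 and 61 reads in the untreated libraries and 387, 349 and 258 in the nicorandil libraries. Its share was 3.19%, 2.80% and 2.61%, and 2.33%, 2.14% and 3.06%. Here too the third nicorandil library was the one inside the untreated range. The mean share was 2.87% ± 0.30 and 2.51% ± 0.49 (SD, n = 3 each; exact permutation p = 0.3).

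The signal of miR-191a-5p was 137, 134 and 128 in the untreated libraries and 144, 137 and 199.8 in the nicorandil libraries. The groups do not overlap, but nicorandil replicate 2 lay close to untreated replicate 1. The log2 difference was 0.25 (SE 0.16), and it did not pass the limma test (adjusted p = 0.373). Without nicorandil replicate 3 it was 0.078. With library totals the difference was -0.20, so its sign, like that of miR-423-5p, depended on the scaling.

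miR-423-3p, the other strand of the Mir423 hairpin, had 62, 55 and 51 reads in the untreated libraries and 249, 265 and 171 in the nicorandil libraries. Its share was 2.79%, 2.49% and 2.18%, and 1.50%, 1.62% and 2.03%. It was the only member whose share groups did not overlap, with every nicorandil library below every untreated one. The mean share was 2.49% ± 0.30 and 1.72% ± 0.28 (SD, n = 3 each), with an exact permutation p of 0.1. Among the 121 miRNAs tested, 37 had share groups that did not overlap, or 30.6%.

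On the deposited scale the same miRNA overlapped between the groups. The signal of miR-423-3p was 119, 119 and 108 untreated and 91.9, 105 and 133 with nicorandil, which spread on both sides of the untreated values. The log2 difference was -0.09 (SE 0.17; limma adjusted p = 0.86). It was -0.23 without nicorandil replicate 3 and 0.032 without nicorandil replicate 1. With library totals it was -0.53 (limma adjusted p = 0.0553), which was not called either.

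miR-103-3p had 0, 2 and 1 reads in the untreated libraries and 14, 8 and 10 in the nicorandil libraries. Pooled over libraries this is 3 of 6774 reads, or 0.0443% (95% Wilson interval 0.0151% to 0.130%), and 32 of 41378 reads, or 0.0773% (0.0548% to 0.109%). The 2 intervals overlap. The untreated reads number no more than the 3 that a count of 0 allows. Its log2 difference was 1.12 (SE 0.66; limma adjusted p = 0.307), and the deposited signals behind it were 0.278, 3.68 and 2.16 against 5.30, 2.37 and 8.03, with the second nicorandil library inside the untreated range.

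miR-16-5p had 0 reads in each untreated library and 2, 3 and 0 in the nicorandil libraries. In the untreated group 0 of 6774 reads allows a share of up to 0.0443%, and the 5 of 41378 reads in the nicorandil group are a share of 0.0121%, below that limit. A difference was therefore not detectable at this depth, and no fold is given. It was not among the 121 miRNAs tested, its mean signal being 0.341. miR-16-5p is abundant in blood cells, and of the 8 blood markers 6 had a read, at 0.678% to 0.854% of the untreated reads and 0.263% to 0.415% of the nicorandil reads. Of the 3 that could be tested, limma called 1, miR-486, a red cell marker, lower with nicorandil (log2 difference -1.20, adjusted p = 0.0238). Over all 121 miRNAs limma called 26, or 21.5%. miR-486 was also called with library totals and median-of-ratios factors, but not with upper-quartile factors (limma adjusted p = 0.0589). The tested marker miR-142-5p went the other way, with a log2 difference of 0.36 (limma adjusted p = 0.86). The red cell marker miR-451-5p had a log2 difference of -0.27 (limma adjusted p = 0.835), and miR-144-5p and miR-150-5p were at 0 reads. The part of such markers in the values of miR-16-5p was not tested.

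Across the 4 members that could be tested, none was called. limma called 26 of 121 miRNAs at an adjusted p under 0.05, or 21.5%, of which 17 were higher and 9 lower with nicorandil. On unadjusted p-values, miR-423-5p alone among the members was under 0.05 (limma, 0.0177). Signal groups did not overlap for miR-423-5p and miR-191a-5p, against 34 of the 121 miRNAs, or 28.1%. The authors' deposited table gives log2 fold changes of 0.34 for miR-423-5p, -0.08 for miR-423-3p, 0.26 for miR-191a-5p, 1.25 for miR-103-3p and 3.18 for miR-16-5p. The unadjusted p-values in the authors' deposited table are 0.0223, 0.724, 0.189, 0.179 and 0.507 in that order.

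**Figure D2:**
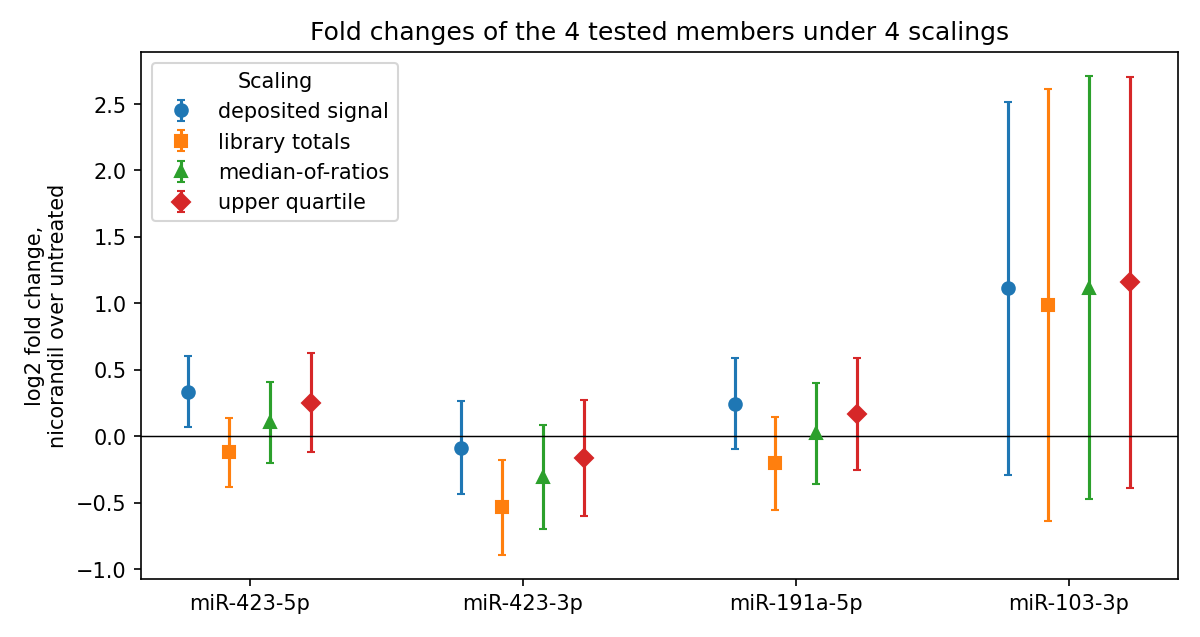
log2 difference, nicorandil minus untreated, of the 4 tested miRNAs under 4 scalings of the libraries, with bars for the 95% interval before adjustment. For miR-423-5p and miR-191a-5p the difference is 0.34 and 0.25 on the deposited signal and -0.12 and -0.20 with library totals.

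The scaling shifted the median difference, and the 3 abundant members moved in the same direction. The shift was not equal for all miRNAs, and that of miR-103-3p was downward only with library totals. Against the deposited signal, the median log2 difference of the 121 tested miRNAs shifted by -0.35 with library totals, by -0.13 with median-of-ratios factors and by -0.05 with upper-quartile factors. With median-of-ratios factors the difference was 0.11 for miR-423-5p, 0.02 for miR-191a-5p and -0.31 for miR-423-3p. For miR-103-3p the difference was 0.99 to 1.16 over the 4 scalings, but it was 1.69 with a pseudocount of 0.1 and 0.33 with one of 10. It was 0.59 without untreated replicate 1, the library with no read of it, and 1.52 without untreated replicate 2.

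A ratio of reads within a library does not depend on how the library is scaled. Log2 ratios were taken on the deposited signal with the pseudocount of 1. The SE and 95% interval of a ratio come from the limma fit with the member named last as the denominator. Of the 10 pairs among the 5 members, 3 had reads on both sides in every library. The ratio of miR-423-5p to miR-191a-5p, in reads, was 2.69, 2.92 and 2.80 in the untreated libraries and 2.89, 3.26 and 2.79 in the nicorandil libraries. The groups overlap, with the third nicorandil library inside the untreated range. The log2 ratio, nicorandil minus untreated, differed by 0.09 (SE 0.21, 95% interval -0.32 to 0.51; exact permutation p = 0.5). In the limma fits with each member in turn as denominator, the adjusted p was 0.863 and 0.816. The interval still allows a change of the ratio by 0.51 on the log2 scale.

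This pair was also among the most even ones of the data. The SD of its log2 ratio over the 6 libraries was 0.099, against 0.162 from counting error alone. Only 1 of the 2775 pairs among the 75 miRNAs with a read in every library had a smaller SD, namely miR-760-3p with let-7i-5p. The median over those pairs was 0.67, and it was 0.40 over the pairs among the 20 most abundant of the 75. Because the SD of this pair lies below its counting error, its place among the pairs is no measure of stability beyond that error. miR-423-5p and miR-191a-5p lie on different chromosomes and share no seed.

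The 2 arms of Mir423 were less even between the groups. The ratio of miR-423-5p to miR-423-3p, in reads, was 3.08, 3.29 and 3.35 in the untreated libraries and 4.49, 4.29 and 4.20 in the nicorandil libraries. Every nicorandil library was above every untreated one. The SD of the log2 ratio within the groups was 0.058, below the 0.174 that counting error alone gives. Its small size therefore does not measure how well the libraries repeat. The mean log2 ratio was 1.69 ± 0.06 untreated and 2.11 ± 0.06 with nicorandil (SD, n = 3 each), a difference of 0.42, or 1.34-fold. In the fit with miR-423-3p as the denominator, the SE was 0.17 and the 95% interval 0.07 to 0.77 before adjustment. The exact permutation p was 0.1. The limma adjusted p was 0.0852 with miR-423-3p as the denominator and 0.172 with miR-423-5p as the denominator, so the pair was not called. Ratio groups that do not overlap were common, at 1039 of the 2775 pairs among the miRNAs with a read in every library, or 37.4%.

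The call on this pair depended on the setting in 2 of 12 alternatives. It was called without nicorandil replicate 3, the shallowest nicorandil library (log2 difference 0.45, larger limma adjusted p 0.0394). It was also called when the denominator's own constant row was kept in the fit (larger limma adjusted p 0.036), which was how the fit was first run. That row was left out after its result was seen. In the other 10 alternatives the larger limma adjusted p ran from 0.148 to 0.5, the highest without untreated replicate 1, and the log2 difference from 0.39 to 0.44.

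In arm shares, the 5p strand held 75.5%, 76.7% and 77.0% of the Mir423 reads in the untreated libraries and 81.8%, 81.1% and 80.8% in the nicorandil libraries. Pooled over libraries it held 76.4% (95% Wilson interval 73.1% to 79.3%) and 81.3% (80.0% to 82.5%). The pooled intervals do not overlap, but they do not include the spread between libraries. For Mir191 the 3p strand had 0 reads in the untreated libraries and 2, 1 and 1 in the nicorandil libraries, beside 387, 349 and 258 reads of miR-191a-5p.

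The ratio of miR-423-3p to miR-191a-5p was 0.873, 0.887 and 0.836 in the untreated libraries and 0.643, 0.759 and 0.663 in the nicorandil libraries. The groups do not overlap, with all nicorandil values lower. The log2 difference was -0.33 (SE 0.25, 95% interval -0.82 to 0.15; exact permutation p = 0.1), and the limma adjusted p was 0.531 and 0.307. Its SD over the 6 libraries was 0.203, close to the 0.207 of counting error alone, and that of miR-423-5p to miR-423-3p was 0.237 against 0.174. Of the 2775 pairs, 50 and 103 had a smaller SD than these.

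**Figure D3:**
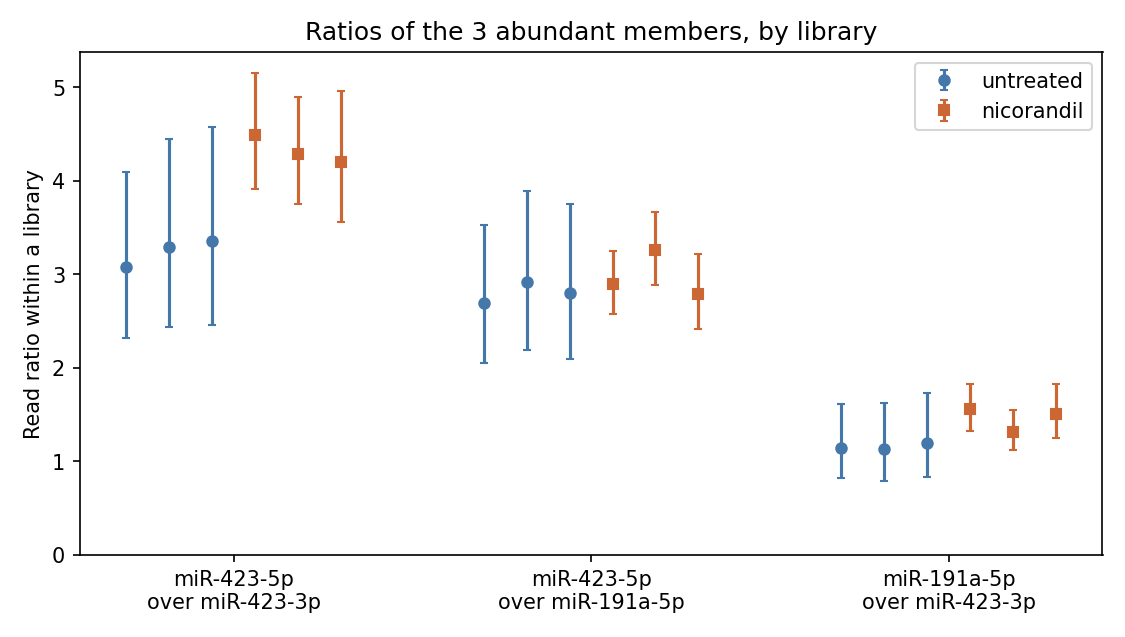
Ratio of reads in each library for the 3 pairs of members with a read in every library (the third drawn as miR-191a-5p over miR-423-3p), untreated and nicorandil, with bars for 95% intervals from counting error. The ratio of miR-423-5p to miR-423-3p runs from 3.08 to 3.35 untreated and from 4.20 to 4.49 with nicorandil, while that of miR-423-5p to miR-191a-5p overlaps between the groups.

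The other 7 pairs involve miR-103-3p or miR-16-5p and rest on libraries with no read. In reads, miR-423-5p exceeded miR-103-3p by 90.5 and 171 times in the 2 untreated libraries where miR-103-3p had a read, and by 79.9, 142 and 71.9 times in the nicorandil libraries. Against the 3 reads that a count of 0 allows, miR-423-5p was at least 63.7, 60.3 and 57 times miR-16-5p in the untreated libraries. limma called 0 of the 6 pairs that could be tested with each of their members as denominator, where between 4.17% and 19.2% of all miRNAs were called against 1 of those denominators. At an unadjusted p under 0.05, limma gave 1 of the 6, the arms of Mir423 (0.0192 and 0.0316). A pair with miR-16-5p could be tested with 1 denominator only.

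Spread over all 6 libraries placed the 3 abundant members differently on each scale. Ranked from the smallest SD among the 75 miRNAs with a read in every library, miR-423-5p was at 13 on the log2 signal (SD 0.232), at 2 on the log2 share (0.154) and at 8 by the mean SD of its log2 ratios to the others (0.549). miR-191a-5p was at 14, 6 and 14, with SDs of 0.232, 0.225 and 0.564. miR-423-3p was at 7, 24 and 17, with 0.182, 0.347 and 0.572. The medians of the 75 were 0.482, 0.479 and 0.691, so each of the 3 lay below those medians. The 3 are among the 20 most abundant of the 75, whose medians were 0.354 on the log2 signal and 0.256 on the log2 share. Within those 20, miR-423-5p ranked 6, 2 and 4 on the 3 scales, miR-191a-5p 7, 4 and 8, and miR-423-3p 4, 15 and 10. On the log2 share miR-423-3p therefore varied more than the median abundant miRNA. An abundant miRNA has less counting error, and for the log2 share that alone gives an SD of 0.0828 for miR-423-5p.

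miR-24-3p, which is no member, had the smallest SD of the 75 on the log2 signal (0.104) and by the mean SD of ratios (0.526). On the log2 share miR-24-3p ranked 12, and miR-143-3p was first. With library totals, limma called miR-24-3p lower with nicorandil (log2 difference -0.43, adjusted p = 0.02). miR-10a-5p had the largest SD on the log2 signal (1.83).

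**Figure D4:**
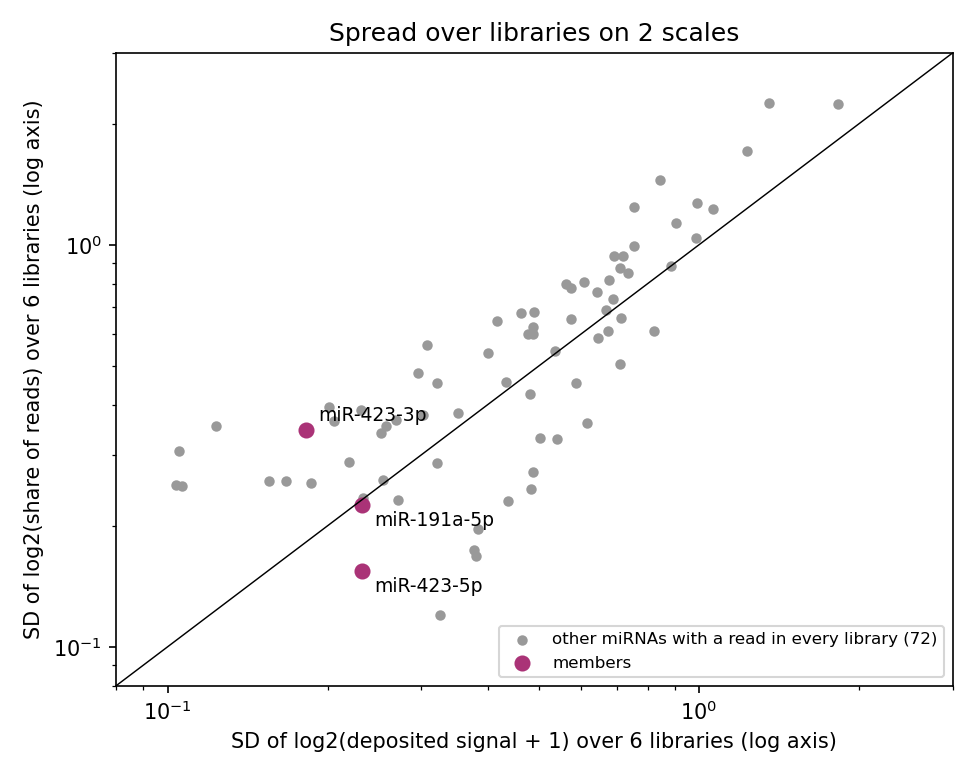
SD over the 6 libraries of log2(deposited signal + 1) against SD of the log2 share of reads, both on log axes, for the 75 miRNAs with a read in every library; the line marks equal SDs. miR-423-5p (0.232 and 0.154) lies below the line and miR-423-3p (0.182 and 0.347) above it.

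The miRNAs whose ratio to a member varied least were chosen by the SD of the log2 ratio over the 6 libraries. For miR-423-5p they were miR-191a-5p (0.099), let-7b-5p (0.188) and let-7c-5p (0.196). For miR-191a-5p they were miR-423-5p, let-7b-5p (0.178) and miR-423-3p (0.203). For miR-423-3p they were miR-101b-3p (0.104, on 15 reads in all), let-7i-5p (0.132) and miR-676 (0.160), and the sister arm was not among them. For miR-103-3p the nearest were miR-146b-5p (0.448), miR-1298 (0.480) and miR-342-3p (0.572). For miR-16-5p they were miR-125b-5p (0.256), miR-181a-5p (0.315) and miR-143-3p (0.317), which with 5 reads of miR-16-5p mostly compares values near 0.

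The choice of member as the reference changed how many other miRNAs were called between the groups. With miR-423-5p as the denominator, limma called 4 higher and 9 lower of 120, or 10.8%. The split was the same with miR-191a-5p, 4 higher and 9 lower, or 10.8%. With miR-423-3p it was 16 higher and 7 lower, or 19.2%, the nearest of the 5 to the 17 higher and 9 lower of the deposited signal. With miR-103-3p it was 0 higher and 5 lower (4.17%), and with miR-16-5p 1 higher and 11 lower of 121 (9.92%). These members had only 35 and 5 reads in all. In a library where such a member has 0 reads, the pseudocount sets the denominator, so these counts do not compare with those of the abundant members. The median log2 difference of all miRNAs tested was -0.11 relative to miR-423-5p, -0.016 relative to miR-191a-5p and 0.32 relative to miR-423-3p.

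**Figure D5:**
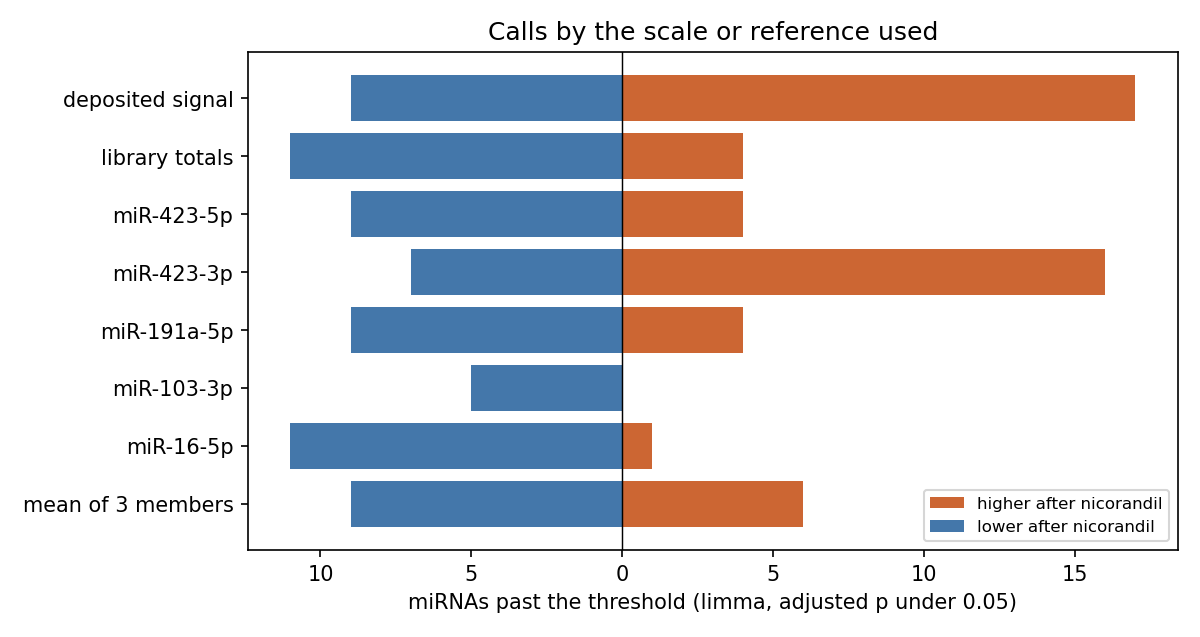
Number of miRNAs called higher and lower with nicorandil (limma, adjusted p under 0.05) when each member, a mean of members, the library totals or the deposited signal sets the scale. The split is 4 higher and 9 lower with miR-423-5p or miR-191a-5p and 16 higher and 7 lower with miR-423-3p. The bars of miR-103-3p and miR-16-5p rest on denominators with 35 and 5 reads in all.

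Of 19 close relatives of the members, such as sister arms, hairpin neighbours and miRNAs of the same seed family, 8 had a read, with 63 reads in all. Only miR-322-3p, the sister arm of a miRNA with the miR-16-5p seed, could be tested, with a log2 difference of -0.31 (limma adjusted p = 0.86). miR-425-5p, from the hairpin next to Mir191, had 1 untreated and 5 nicorandil reads beside 194 and 994 of miR-191a-5p. miR-15b-5p, from the hairpin beside Mir16, had 0 and 1 reads.

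Of 25 other miRNAs used as references, 23 could be tested. The 6 most abundant were miR-24-3p, with a log2 difference of 0.03 on the deposited signal, miR-328a-3p (-0.16), miR-21-5p (0.63), miR-26a-5p (0.09), miR-99b-5p (0.95) and miR-22-3p (0.07). Of these, limma called miR-21-5p (adjusted p = 0.00937) and miR-99b-5p (adjusted p = 0.00284) higher with nicorandil. Over the 23, 4 were higher, among them miR-23a-3p and miR-93-5p, and 2 were lower, miR-30c-5p and miR-126a-3p. Over all 121 miRNAs, 17 were higher and 9 lower, or 21.5% called. The 4 names miR-23a-3p, miR-93-5p, miR-30c-5p and miR-126a-3p were chosen after their values were seen. The median log2 difference of the 23 was 0.09, against 0.23 for all 121. With library totals 0 of the 23 were higher and 4 lower, where 4 of all 121 were higher and 11 lower. The median was -0.35 against -0.12. The 4 lower ones were miR-24-3p (log2 difference -0.43, limma adjusted p = 0.02), miR-328a-3p (-0.62, limma adjusted p = 0.0191), miR-30c-5p and miR-126a-3p. With miR-423-5p, miR-191a-5p and miR-423-3p together as the reference, an alternative chosen after seeing the data, 1 of the 23 was higher and 2 were lower. Over all 121 miRNAs, 6 were higher and 9 lower with that reference. The list holds markers of other cells too: miR-126a-3p, the endothelial marker, had 19 untreated and 13 nicorandil reads.

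Some markers of other tissues were called between the groups and the 3 abundant members were not. Such calls were not particular to these markers, since limma called 26 of all 121 miRNAs, or 21.5%, and 4 of 10 mesenchymal markers. Those 4 were all higher with nicorandil, and the median log2 difference of the 10 was 0.68. With library totals, limma called only miR-145-5p of the 4, which had 0 untreated reads. The others were not called: miR-143-3p (log2 difference 0.09, limma adjusted p = 0.615), miR-21-5p (0.17, limma adjusted p = 0.528) and miR-100-5p (0.61, limma adjusted p = 0.326). Only miR-145-5p of the 4 was also called with median-of-ratios factors, with upper-quartile factors and with the 3 abundant members as the reference. Liver and gut markers were listed at 3 of 4, namely miR-194-5p, miR-192-5p and miR-122-5p. They held 1.44% to 2.61% of the untreated reads and 0.463% to 0.617% of the nicorandil reads, and limma called each of the 3 lower. Of the 7 epithelial markers 6 had a read, with 31 reads in all, and miR-203a-3p was at 0. Their summed share was 0.181% to 0.385% untreated and 0.0237% to 0.0301% with nicorandil. Of the 2 that could be tested, limma called miR-200b-3p lower and did not call miR-200a-3p (limma adjusted p = 0.203). The part of these markers in the members' values was not tested.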

How the data were processed

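Exosome small RNA libraries were sequenced as single-end reads, 3 untreated and 3 nicorandil, and 763 mature miRNAs are listed. The submitters' processing notes name FastQC, Bowtie and edgeR; no version, build or annotation is given in the sources used here. The deposited signal has the form of edgeR pseudo-counts, and whole reads were recovered for 763 of 763 miRNAs, since all 4578 values recomputed from them lie within 1e-05 of the deposited ones. The authors' deposited log2 fold changes and p-values were copied only. The members and lists were chosen with earlier results of these data known.

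The main test was limma 3.58.1 (R 4.3.3) with trend on log2(signal + 1) for 121 miRNAs of mean signal at least 1, with Benjamini-Hochberg adjustment and a threshold of 0.05. A member ratio was fitted by subtracting the denominator's log2 value from all others, the denominator itself left out (a choice made after a first fit that kept it), and a pair was called only if it passed with each of its members as denominator. Shares and single ratios used two-sided exact permutation tests, and Wilson intervals are at 95%. Alternatives were edgeR 4.0.16 quasi-likelihood and DESeq2 1.42.0 on recovered reads, other scalings, pseudocounts and filters, a replicate block and leaving out each library. The model steps were tested on simulated data. Named miRNAs were the members, their relatives with a read, the 3 nearest to each member, the 6 most abundant other references and the miRNAs of lowest and highest spread.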

Additional observations from a re-analysis of the deposited data

How the results depend on the processing

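The 26 calls of nicorandil against untreated became 15 under library totals (4 higher and 11 lower), 13 after upper-quartile scaling (6 and 7), 15 after median-of-ratios scaling (6 and 9), 14 with the 5 members as the reference (4 and 10), 15 with the 3 abundant members (6 and 9) and 14 with DESeq2 (5 and 9). Leaving out 1 library gave 11 to 21 calls, the fewest without nicorandil replicate 2. edgeR's quasi-likelihood test gave 21 calls. DESeq2 used the median-of-ratios factors and gave no adjusted p for 21 of the 121 miRNAs. The cause of the changes in calls was not tested. With library totals the log2 difference was -0.12 for miR-423-5p and -0.20 for miR-191a-5p. On the deposited signal, leaving out 1 library gave -0.23 (without nicorandil replicate 3) to 0.032 (without nicorandil replicate 1) for miR-423-3p, and 0.078 (without nicorandil replicate 3) to 0.35 for miR-191a-5p. None of the 4 tested members was called in any alternative in which its own difference was read out. The fit with the 5 members as the reference gave no such readout, and miR-16-5p had none in any alternative. The 0 called member ratios became 1 without nicorandil replicate 3 and 1 with the denominator's own row kept, the pair of Mir423 arms in both, and the range over libraries left out was 0 to 1. The difference in summed member share stayed between -2.71 and -1.13 percentage points in 8 alternatives. The median SD of the 10 member ratios, 0.646, was 0.834 from reads with 0.5 added, 1.50 with a pseudocount of 0.1, 0.225 with a pseudocount of 10 and 0.203 over the 3 pairs with a read in every library, and 0.471 to 0.712 with 1 library left out; the pairs of miR-103-3p and miR-16-5p hold zeros, where the pseudocount sets the value.

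The labels do not say whether the replicate numbers pair the samples. Correlations of deviations from the group means were 0.009, 0.044 and -0.03 for numbers 1, 2 and 3. With so few reads in the untreated libraries, these values cannot decide it. A fit with the replicate block gave 26 calls and 0 member ratios. The keeping of the own row, the averaging of untreated replicates 1 and 2, the 3-member reference and the 3-pair median were chosen after seeing the data. At the depth of the untreated libraries, miR-103-3p and miR-16-5p lie at or under the limit that a count of 0 allows.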
